A study of Mus musculus with 4 samples.

Results

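The M8 line, a mutant of a mouse colon tumour cell line induced by ENU (ethylnitrosourea, a mutagen that alkylates DNA and leaves mainly point mutations), was set against its control gene by gene. All genes of the deposited count table were eligible, and those with 50 or more counts in the higher of the M8 and control libraries were described, which left 10818 of 41457 genes. The M8 cells carry the genotype label ENU mutant, as do 2 further lines, M32 and M83, while the control cells carry no mutant label. All were grown in RPMI medium without a stated treatment, and each is represented by 1 column of poly(A) RNA counts, called a library here. The labels do not give the mutated genes of M8, whether the line is a single clone, or whether it was derived from the same culture as the control. With 1 library a side no test was possible, so every difference is described as a ratio of CPM (counts per 1000000 of the library total). Its exact 95% interval covers counting error only and not the spread between cultures. The values of M32 and M83 stand beside those of M8 to show which library lies apart. These lines share the control library with M8, so their ratios to control are not separate evidence.

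Type I and type II interferons bind receptors on the cell surface and signal through JAK kinases to transcription factors of the STAT and IRF families. These factors enter the nucleus and switch on interferon-stimulated genes, many of which carry a short repeated GAAA element next to their start site. Many of the proteins they encode bind foreign RNA, degrade it or block its translation. Tumour cells in culture often keep a low tonic level of these genes without added interferon. E2F6, a repressor of the E2F family, sits in a polycomb complex known as PRC1.6 and silences germline genes in mouse cells.

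The M8 library held 28879954 counts, with 27312207 in M32, 28011773 in M83 and 25818148 in control, and a count of 0 allowed up to 0.104 CPM in M8 and 0.116 CPM in control. Most markers of leukocytes, endothelium, nerve, muscle and red cells were below 50 counts. Of 23 leukocyte markers 2 reached 50 counts, and the whole list summed to 159 CPM in M8 against 219, 226 and 204 CPM in M32, M83 and control, most of it from Cd8a. Cd3e and Csf1r had 0 counts in every library. The colon label had little echo in the profile, since 3 of 23 epithelial and intestinal markers reached 50 counts (Tjp1, Krt18 and Krt20), and Epcam and Cdx2 had 0 counts throughout. That whole list summed to 334 CPM in M8, 327 CPM in M32, 400 CPM in M83 and 296 CPM in control. Of 11 endothelial markers 2 reached 50 counts and of 11 muscle and erythroid markers 0. Of 9 neural markers 2 did, and that list summed to 176 CPM in M8, 71.5 CPM in M32, 225 CPM in M83 and 93.6 CPM in control, most of it from Nefl, while Sox10 had 0 counts throughout. Fibroblast markers were an exception, with 8 of 13 above the limit, and are described with the matrix genes.

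Promoter windows are shown for interferon-stimulated genes that were lower in M8, with the repeated GAAA element marked. The motif searched was GAAA, any 2 bases and GAAA again, on both strands, so that it reads TTTC, 2 bases and TTTC where it lies on the other strand, within the 250 bases before the RefSeq start site (build GRCm38.p6). It was present upstream of 3.46% of 27025 genes with a promoter in the table, and of 3.20% of the 8431 among them with 50 or more counts. Among the guanylate-binding and immunity-related GTPase genes below, 7 of 8 (87.5%) had it. In the antiviral effector list 10 of 31 genes (32.3%) with a promoter had it. Within that list, it was upstream of 9 of the 19 genes at least 2-fold lower in M8 (47.4%) and of 1 of the 12 others (8.33%). Of all 41 genes with a promoter that were at least 4-fold lower in M8, 13 (31.7%) had the motif. The STAT motif TTCNNNGAA was upstream of 16.1% of the effector list and 8.13% of all genes. Within the list it was upstream of 1 of the 19 genes at least 2-fold lower (5.26%) and of 4 of the 12 others (33.3%). The E2F motif TCCCGCC was upstream of 7.32% of the genes at least 4-fold lower and of 22.2% of the genes with 50 or more counts. A match is only a match of letters in this window. The lists were made of interferon-stimulated genes, and the genes at least 4-fold lower include members of them. Some members are related and have nearly the same window, such as Irgm2 and Igtp, so these shares do not count separate observations. Whether the element plays a part in the M8 levels was not tested. The windows lie at Gbp7 (chr3:142530263-142530312, plus strand), Gbp2 (chr3:142620584-142620633, plus strand), Irgm2 (chr11:58214893-58214942, plus strand), Igtp (chr11:58199502-58199551, plus strand), Oas3 (chr5:120777705-120777754, minus strand), Isg15 (chr4:156200855-156200904, minus strand), Ifit1 (chr19:34640784-34640833, plus strand) and Rsad2 (chr12:26456543-26456592, minus strand). Each is printed 5′ to 3′ on the strand of its gene, with each match that lies wholly within it in capitals. Neighbouring matches overlap in Isg15.
Gbp7: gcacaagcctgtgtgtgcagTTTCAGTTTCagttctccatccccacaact
Gbp2: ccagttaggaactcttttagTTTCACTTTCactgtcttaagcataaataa
Irgm2: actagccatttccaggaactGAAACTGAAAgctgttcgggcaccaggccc
Igtp: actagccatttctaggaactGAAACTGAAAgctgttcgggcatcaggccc
Oas3: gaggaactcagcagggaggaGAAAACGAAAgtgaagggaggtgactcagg
Isg15: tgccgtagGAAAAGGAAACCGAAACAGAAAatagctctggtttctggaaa
Ifit1: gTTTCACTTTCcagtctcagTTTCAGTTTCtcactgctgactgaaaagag
Rsad2: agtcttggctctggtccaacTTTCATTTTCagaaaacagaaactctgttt

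Most genes had nearly equal levels in M8 and control, and the tails were of unlike make. The median log2 ratio was 0.01, with quartiles at -0.23 and 0.26, and 5564 genes (51.4%) lay above control against 5254 (48.6%) below. At least 2-fold higher in M8 were 408 genes (3.77%) and at least 2-fold lower 227 (2.10%), and at least 4-fold higher were 94 (0.869%) and at least 4-fold lower 61 (0.564%). Among the 61 genes at least 4-fold lower, M8 lay at least 2-fold below each of the other libraries in 50. Among the 94 genes at least 4-fold higher, M8 lay at least 2-fold above each of the others in 24, while in 43 it was control that lay at least 2-fold below all mutant lines. Over all genes, M8 lay that far below every other library in 131 (1.21%) and above in 39 (0.361%), and control lay that far below in 148 (1.37%) and above in 12 (0.111%). The spread depended on depth. Between 50 and 100 counts the central 90% of log2 ratios ran from -1.48 to 1.96, and from 2000 counts upward from -0.51 to 0.56. Of the genes with 45 to 49 counts in the higher library, just outside the limit, 101 were left out, with a median of 0.16, and 91 genes with 50 to 54 counts just inside it had a median of 0.20. A gene near the limit can enter only through its higher library, so for weak genes a ratio far from 1 is partly a condition of entry.

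**Figure D1:**
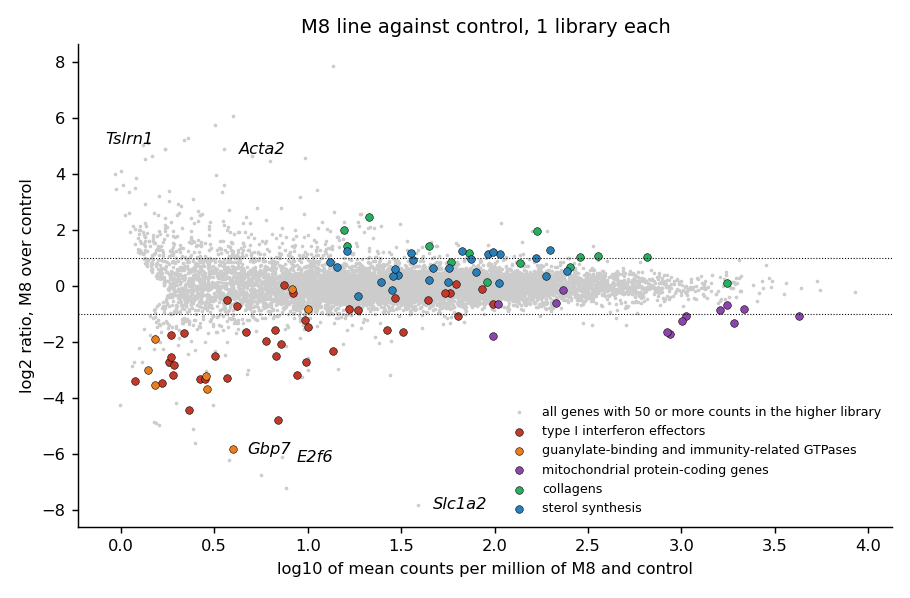
Log2 ratio of M8 over control (vertical axis) against the log10 of the mean CPM of both libraries (horizontal axis) for 10818 genes, with 5 gene lists in colour and dotted lines at 2-fold. Interferon effector and GTPase genes lie mostly below the lower line, collagens lie above 0, and mitochondrial protein-coding genes form a group below 0 at high CPM.

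Antiviral effector genes were lower in M8 than in control and than in both other lines. Of the 46 listed genes 40 reached 50 counts, and 38 of these were lower and 2 higher. At least 2-fold lower were 27 of them and at least 4-fold lower 17, against 2.10% and 0.564% of all genes. The median log2 ratio was -1.64, where all genes had 0.01. Some members, such as Oas2, Oas1g, Phf11d, Ifi44 and Ifi27l2a, had under 50 counts in M8 and passed the limit only through control. Those could only count as lower. In 37 of the 40, M8 was the lowest of the 4 libraries, as it was in 28.3% of all genes, and in 27 it lay at least 2-fold below every other library. The summed level of all 46 genes was 546 CPM in M8 against 1016, 1473 and 923 CPM in M32, M83 and control. The 40 genes lie on 13 chromosomes. Without the 4 on chromosome 12, the median was -1.60.

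The oligoadenylate synthetase genes, whose products make a second messenger on sensing double-stranded RNA, were among the lowest. Oas3 had 51 counts in M8 against 759 in M32, 1534 in M83 and 406 in control (log2 ratio -3.15, interval -3.60 to -2.73). Oas1a had 59 counts in M8, 335 in M32, 785 in M83 and 296 in control. Oasl2 had 75 counts in M8, 843 in M32, 943 in M83 and 441 in control. M8 was thus the lowest library for each, and the other libraries lay several times above it. Oas1g (-3.28) shares 55.1% of its 31-base words with Oas1a, so the split of reads between them is uncertain.

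Ubiquitin-like modification and its removal were also represented. Usp18, which encodes the protease that strips ISG15 from proteins and restrains the interferon receptor, had 11 counts in M8 against 189 in M32, 346 in M83 and 88 in control. Isg15 itself had 66 counts in M8, 277 in M32, 297 in M83 and 182 in control (-1.63). Herc6, the mouse ligase for ISG15, was at -1.44. Both the modifier and its protease were lowest in M8. Rsad2, the gene of the antiviral enzyme viperin, had 14 counts in M8, 66 in M32, 97 in M83 and 81 in control (-2.69). Its neighbour Cmpk2, a mitochondrial nucleotide kinase gene, had 8 counts in M8, 196 in M32, 188 in M83 and 79 in control (-3.47). Both lie on chromosome 12. Ifit1, which encodes a protein that binds foreign RNA ends, had 71, 401, 441 and 246 counts in M8, M32, M83 and control (-1.95).

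M8 was also the lowest library for effectors of other kinds. Ifi44 had 14 counts in M8, 407 in M32, 265 in M83 and 125 in control (-3.32). Samd9l had 134 counts in M8, 599 in M32, 877 in M83 and 589 in control (-2.30). Parp9 and Dtx3l, whose products form a complex, were at -2.08 and -1.57. Apol9b (52 counts in M8, 522 in M32, 772 in M83 and 436 in control), outside the list, was at -3.23, and 64.9% of its words occur in Apol9a, which was at -2.05. The list was not uniform. Eif2ak2, the gene of the RNA-activated kinase PKR, was at -0.50, the RNA-editing gene Adar at -0.26, Bst2 at -0.24, Trim25 at -0.09, Isg20 at 0.05 and Lgals3bp at 0.07. For Lgals3bp the counts were 1842 in M8, 1962 in M32, 3193 in M83 and 1569 in control. Over all genes described the quartiles were -0.23 and 0.26, and Trim25, Isg20 and Lgals3bp lay between them. Eif2ak2, Adar and Bst2 lay below the lower quartile but above the 5th percentile of -0.70.

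**Figure D2:**
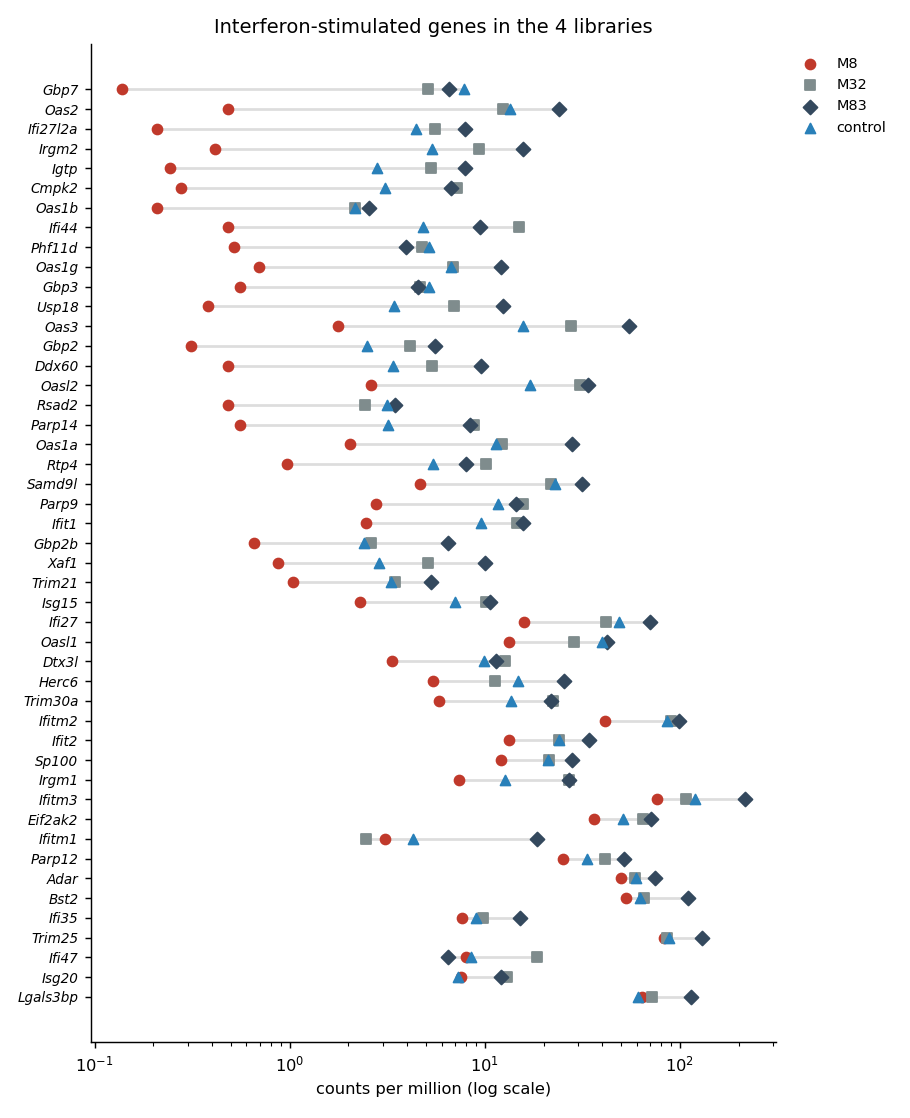
Level in CPM (horizontal axis, log scale) of 39 of the 40 effector genes and the 8 GTPase genes with 50 or more counts in M8, M32, M83 and control, ordered by the ratio of M8 to control. M8 is the left-most point for most genes, and the 4 libraries draw together for Trim25, Isg20 and Lgals3bp at the bottom.

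The guanylate-binding protein (GBP) genes and immunity-related GTPase (IRG) genes, which respond mainly to interferon gamma and whose products attack vacuoles of intracellular microbes, lay lower still. Of 19 listed genes 8 reached 50 counts, all 8 were lower, 6 at least 2-fold and 5 at least 4-fold, with a median of -3.10. Those 6 had under 50 counts in M8 and passed the limit only through control, so they could only count as lower. The whole list summed to 19.3 CPM in M8 against 94.9 CPM in M32, 89.0 CPM in M83 and 52.1 CPM in control. Igtp had 7 counts in M8, 145 in M32, 222 in M83 and 72 in control (-3.52). Gbp3 had 16 counts in M8, 127 in M32, 127 in M83 and 133 in control (-3.22). Gbp2 had 9 counts in M8, 113 in M32, 155 in M83 and 64 in control (-2.99). Gbp2b was at -1.87 and Irgm1, a regulator of the other IRG proteins, at -0.80. Ifi47 was the exception at -0.09, with 232 counts in M8, 503 in M32, 182 in M83 and 220 in control. Igtp and Irgm2 overlap on the same strand and share 15.9% and 10.7% of their words, mostly with each other, so their reads may be partly exchanged.

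The ligands of the pathway were not detectable in either library. Of 21 interferon genes 20 had no count in M8 and 19 none in control, and the highest count in any library was 3. The receptor genes and kinases lay within 2-fold of control. Ifnar1 and Ifnar2, the type I receptor subunit genes, were each at -0.32, with 897 counts in M8, 1166 in M32, 877 in M83 and 1000 in control for Ifnar1. Ifngr1 and Ifngr2, the interferon gamma receptor genes, were at -0.04 and 0.43, and the kinase genes Jak1, Tyk2 and Jak2 at -0.02, -0.53 and 0.75. Several transcription factors downstream were lower. Irf9 had 161 counts in M8, 382 in M32, 589 in M83 and 393 in control (-1.45, interval -1.72 to -1.18). Stat2 had 166 counts in M8, 566 in M32, 622 in M83 and 322 in control (-1.12). Irf7, the amplifier of interferon production, was at -2.99, whereas Irf3 was at 0.10 and Irf1 at -0.09. All of Irf7, Irf9 and Stat2 are themselves interferon-stimulated. Over the 19 of 21 listed signalling genes with 50 counts, 8 were higher and 11 lower, 3 of them at least 2-fold lower, with a median of -0.04.

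Sensors of foreign RNA were split in the same way. Ifih1, the gene of the double-stranded RNA sensor MDA5, had 64 counts in M8, 373 in M32, 847 in M83 and 460 in control (-3.01). Ddx58, the gene of the sensor RIG-I, had 240 counts in M8, 738 in M32, 1326 in M83 and 626 in control (-1.54). Tlr3, an endosomal RNA sensor gene, had 38 counts in M8, 164 in M32, 334 in M83 and 76 in control (-1.16). These are RNA sensors whose genes respond to interferon. The adaptor Mavs was at 0.38 and the kinase Tbk1 at -0.09. The DNA sensor gene Cgas was at -0.55 and Tmem173, which encodes STING, at -0.04. In all 16 of 20 listed genes reached 50 counts, 5 higher and 11 lower, 3 at least 2-fold lower, with a median of -0.32.

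MHC class I genes did not follow the effectors. Of 23 listed genes 22 reached 50 counts, 14 higher and 8 lower, and the median was 0.16. H2-K1 and H2-D1, which encode heavy chains, were at 0.51 and 0.27, and the peptide transporter genes Tap1 and Tap2 at 0.11 and 0.52. B2m, which encodes the light chain, had 7024 counts in M8, 7269 in M32, 13202 in M83 and 8725 in control (-0.47). Psmb8, an immunoproteasome subunit gene, was the 1 member at least 2-fold lower, with 26 counts in M8, 202 in M32, 195 in M83 and 83 in control (-1.84, interval -2.53 to -1.19). Of its partner subunits Psmb10 was at -0.04. Cd274, the gene of the checkpoint ligand PD-L1, stayed below the limit of 50, with 9 counts in M8, 29 in M32, 79 in M83 and 41 in control. Its interval ran from -3.58 to -1.29. The 8 of 17 checkpoint and NK-cell ligand genes that reached the limit all lay within 2-fold of control (median 0.16).

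Of 32 chemokine, cytokine and related receptor genes 7 reached 50 counts. Cxcl10, an interferon-induced chemokine gene, had 52 counts in M8, 197 in M32, 194 in M83 and 136 in control (-1.55). Il1rl1, the gene of the IL-33 receptor, had 8827 counts in M8 against 6592 in M32, 11965 in M83 and 1986 in control (1.99). Ccl9 had 60 counts in M8, 102 in M32, 67 in M83 and 24 in control (1.16). For the last 2 genes it was control that lay below all mutant lines.

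E2f6 lies on chromosome 12 (chr12:16810963-16839742, plus strand, protein-coding) and had 6 counts in M8 against 403 in M32, 549 in M83 and 369 in control. The ratio of M8 to control was 0.0145 (interval 0.00530 to 0.0319), a log2 ratio of -6.10. The nearest genes with 50 or more counts on either side were Lpin1 and Trib2 upstream and Rock2 and Pqlc3 downstream. They were at 0.32, -0.41, -0.77 and -0.76, and genes with fewer counts may lie between. E2f6 thus stood far below the nearest genes described. Its partners in PRC1.6 ran from -0.65 (Hdac1) to 0.17 (Yaf2), with Mga at 0.00, Pcgf6 at -0.14, L3mbtl2 at -0.14 and Max at -0.36. The other members of the E2F and pocket protein family ran from -0.70 (E2f8) to 0.04 (Tfdp2). Of 25 germline genes that E2F6 is known to repress in mouse, 23 stayed below 50 counts, with at most 10 counts in any of them. The remaining 2, Sycp1 and Zcwpw1, were at 0.26 and 0.88. Zcwpw1 had 119 counts in M8, 125 in M32, 122 in M83 and 58 in control, so all mutant lines lay near each other.

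Chromosome 12 as a whole was lower in M8. Of its 381 genes 341 were lower, and 47 (12.3%) were at least 2-fold lower, against 1.72% of the 10437 genes elsewhere. Their median log2 ratio was -0.56 in M8, beside -0.01 in M32 and 0.19 in M83. All 12 windows of 10 Mb had a negative median, from -0.36 at the distal end to -0.75 between 50 and 60 Mb. Without the interferon list genes the chromosome's median was -0.55 over 377 genes. Chromosomes 1, 15, 17 and 19 lay slightly above control in M8, with medians of 0.18, 0.18, 0.18 and 0.19, and the other autosomes were within -0.04 and 0.03. In M32 the same 4 chromosomes had medians of 0.13, 0.11, 0.15 and 0.12. The number of copies of a chromosome and the activity of its genes cannot be told apart in RNA counts.

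Single genes of chromosome 12 went further than its median. Crip2, a LIM-domain protein gene, had 159 counts in M8, 1385 in M32, 1644 in M83 and 1286 in control (-3.18, interval -3.42 to -2.94). Pax9, a developmental transcription factor gene, had 6 counts in M8, 106 in M32, 188 in M83 and 97 in control (-4.18). Acot1, a cytosolic acyl-CoA thioesterase gene, was at -5.09, while the adjacent Acot2 was at 0.35, and 22.7% of the words of Acot1 occur in other genes. Genes of the same chromosome also lay above control. Ttc9 had 1988 counts in M8, 723 in M32, 1454 in M83 and 591 in control (1.59). Crip1, which adjoins Crip2, was at 1.42, with 345 counts in M8, 242 in M32, 280 in M83 and 115 in control. The elastic fibre gene Fbln5 was at 1.18, with 1519 counts in M8, 4718 in M32, 4190 in M83 and 599 in control. Thus the neighbours Crip1 and Crip2 lay on opposite sides of control.

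**Figure D3:**
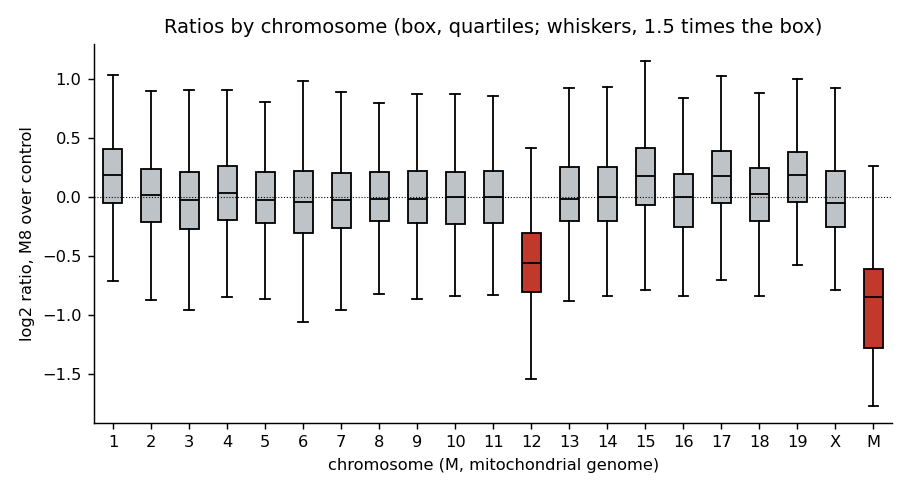
Log2 ratio of M8 over control (vertical axis) for the genes of each autosome, of chromosome X and of the mitochondrial genome (M), with boxes at the quartiles, lines at the medians and outliers not drawn. Chromosome 12 and the mitochondrial genome, in red, are the groups with boxes wholly below 0, with medians of -0.56 and -0.84.

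Protein-coding transcripts of the mitochondrial genome, which encode core subunits of the respiratory chain, were lower in M8. All 13 were below control, 7 at least 2-fold, with a median of -1.06, and M8 was the lowest of the 4 libraries in all 13. The mitochondrial genome took 1.27% of counts in M8, 3.10% in M32, 2.50% in M83 and 2.36% in control. Several of these genes have long near-copies in the nuclear genome (100% of the words of mt-Co2 and 99.9% of mt-Co3 occur elsewhere). Among genes with under 10% of words elsewhere, mt-Cytb, a complex III subunit, was at -1.33, with 31559 counts in M8, 76969 in M32, 70201 in M83 and 70774 in control. Likewise mt-Nd1, of complex I, was at -0.81 and mt-Nd6, encoded on the other strand, at -0.58. The 2 ribosomal RNAs were split, with mt-Rnr1 lower at -0.28 and mt-Rnr2 higher at 0.26. The protein-coding gene mt-Nd3, at -0.15, lay nearer to control than mt-Rnr1. The ribosomal RNAs lack long poly(A) tails, and how well poly(A) selection recovered them was not tested.

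Nuclear genes of the respiratory chain did not follow. Of 45 genes 28 were higher and 17 lower, none reached 2-fold, and the median was 0.12. Factors of mitochondrial transcription and RNA stability had a median of -0.05 over 31 genes. Tfam, which packages mitochondrial DNA, was at 0.01, the polymerase gene Polrmt at -0.09 and Lrpprc, whose product stabilises mitochondrial mRNAs, at 0.43. Slirp, the gene of the partner of LRPPRC, was the 1 factor at least 2-fold lower, with 279 counts in M8, 756 in M32, 752 in M83 and 643 in control (-1.37, interval -1.57 to -1.16). It lies on chromosome 12, and 97.8% of its exon length is overlapped by Alkbh1 and Snw1 on the other strand, which were at -0.17 and -0.59. With no stated strand setting, reads of these genes cannot be told apart.

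Genes of the cell cycle were slightly lower in M8. Of 35 listed genes 33 reached 50 counts, 30 of them lower and 3 higher, with a median of -0.33 in M8, beside -0.13 in M32 and -0.20 in M83, and M8 was the lowest library in 19. Mki67, the proliferation marker, was the 1 gene at least 2-fold lower (-1.37), with 5339 counts in M8, 8200 in M32, 8746 in M83 and 12301 in control. Plk1 was at -0.55, Aurkb at -0.47, Ccnb1 at -0.31 and Cdk1 at -0.28. These values and the list's median lay below the lower quartile of all genes described (-0.23) but above their 5th percentile (-0.70). In bulk RNA, fewer cycling cells and less RNA per cell cannot be told apart. Of 27 replication genes 24 were lower, with a median of -0.31 in M8, beside -0.28 in M32 and -0.41 in M83, and M8 was the lowest library in 7 of them. Rrm2, on chromosome 12, stood at -1.30. DNA repair genes had 25 of 32 lower and a median of -0.24 in M8, beside -0.22 in M32 and -0.14 in M83, with Brca2 at -0.83 and none at 2-fold.

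Targets of p53 were slightly higher in M8 as a group. Of 26 genes with 50 counts 18 were higher, against 51.4% of all genes. The list's median was 0.31 in M8, beside 0.18 in M32 and 0.17 in M83. That median lay just above the upper quartile of all genes described (0.26) and below their 95th percentile (0.85). M8 was the highest library in 13 of the 26, against 26.4% of all genes. Cdkn1a, which encodes the cell-cycle inhibitor p21, had 10344 counts in M8, 6756 in M32, 8319 in M83 and 5371 in control (0.78). Phlda3, a p53-induced repressor of AKT, had 8283 counts in M8, 5393 in M32, 4964 in M83 and 4096 in control (0.85). Ccng1 was at 0.60, Zmat3 at 0.53, Mdm2 at 0.50 and Bax at 0.44. Dcxr, at 1.15, was the 1 member at least 2-fold higher, with 156 counts in M8, 127 in M32, 189 in M83 and 63 in control. That is 3.85% of the 26, near the 3.77% of all genes.

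**Figure D4:**
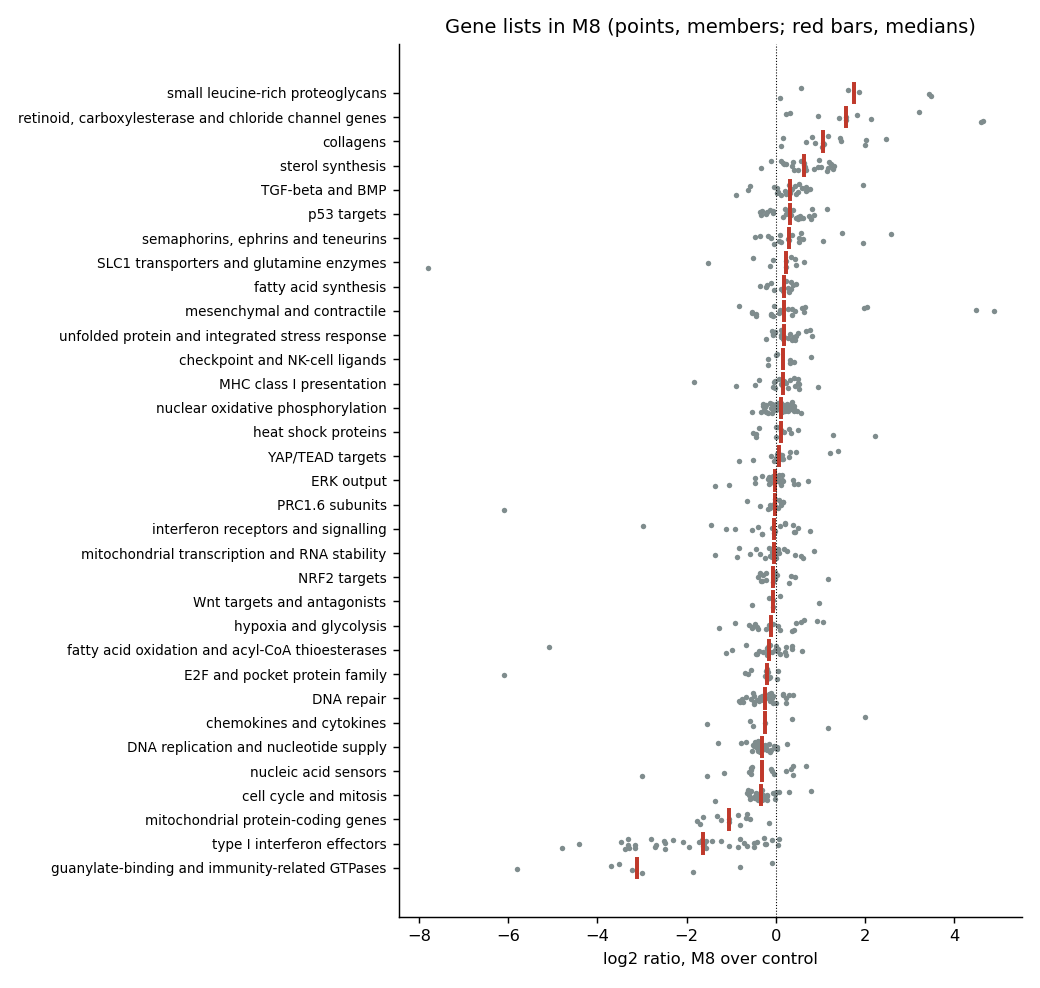
Log2 ratio of M8 over control (horizontal axis) for the members with 50 or more counts of each gene list, cell type marker lists left out (grey points), and the list's median (red bar), ordered from the highest median at the top to the lowest at the bottom. Proteoglycan, retinoid and collagen genes lead at the top, and the GTPase, effector and mitochondrial protein-coding genes stand at the bottom.

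Collagen genes were higher in M8. All 14 collagen chain genes with 50 counts, of 25 listed, were higher, 9 at least 2-fold, with a median of 1.06. Col6a1, Col6a2 and Col6a3, which encode the chains of the beaded-filament collagen VI, were at 1.45, 2.01 and 2.47. For Col6a2 there were 725 counts in M8, 940 in M32, 544 in M83 and 161 in control. Here control was the library that lay apart. Col3a1, a fibrillar collagen gene, had 7748 counts in M8, 12998 in M32, 2047 in M83 and 1748 in control (1.99). For Col3a1 M83 and control lay together, and M8 lay between them and M32. Col18a1, the basement-membrane collagen whose fragment is endostatin, was at 1.17 with 2907 counts in M8, 1691 in M32, 720 in M83 and 1153 in control, and Col4a1 and Col4a2 were at 1.08 and 1.05. For these 3 genes M8 was the highest library. Col1a2 was nearly level at 0.11 beside Col1a1 at 1.04.

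Small leucine-rich proteoglycans, which bind collagen fibrils, were higher in all 6 of 13 genes with 50 counts (median 1.74, 4 at least 2-fold). Those 4 had under 50 counts in control and passed the limit only through M8, so they could only count as higher. All 13 genes summed to 59.4 CPM in M8, 156 CPM in M32, 44.0 CPM in M83 and 24.75 CPM in control. Prelp had 590 counts in M8, 1751 in M32, 196 in M83 and 49 in control (3.43). Ogn had 184 counts in M8, 1233 in M32, 43 in M83 and 45 in control (1.87). M32 was the highest library for both, with M8 next. The smooth muscle actin genes Acta2 and Actg2 were at 4.89 and 4.47. Actg2 had 348 counts in M8, 318 in M32, 16 in M83 and 14 in control, and Acta2 had 199 in M8, 474 in M32, 53 in M83 and 6 in control. The matricellular genes Thbs1 and Tnc were at 2.04 and 1.96, and Tnc had 602 counts in M8, 49 in M32, 706 in M83 and 138 in control. Vim and Fn1, common mesenchymal genes, were at -0.06 and -0.44, and Zeb1, Snai1 and Twist1 at -0.11, 0.08 and -0.54. Over the mesenchymal and contractile list 13 of 22 genes were higher, 4 at least 2-fold, with a median of 0.19.

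Fibroblast markers overlap these lists. Of 13 such markers 8 reached 50 counts, 6 of them at least 2-fold higher, and the summed level was 3559 CPM in M8 against 4201 CPM in M32, 3154 CPM in M83 and 2733 CPM in control. The receptor genes Pdgfra and Pdgfrb were at 1.05 and 1.40, and Mfap5 at 2.60, while Thy1 had 0 counts in every library and Lum 0 in M8 and control. The part of other cells in these differences was not tested. Mmp13, a collagenase gene, was highest in M8 alone, with 190 counts against 21 in M32, 32 in M83 and 14 in control (3.60, interval 2.82 to 4.50).

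**Figure D5:**
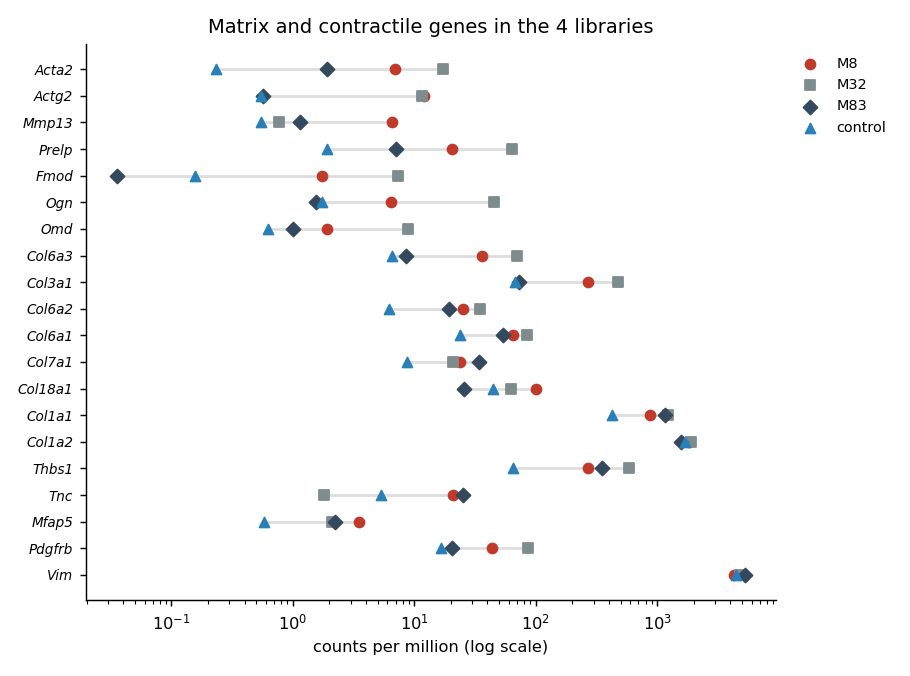
Level in CPM (horizontal axis, log scale) of 20 matrix, contractile and mesenchymal genes in M8, M32, M83 and control. M8 lies near M32 for Actg2 and between M32 and the other libraries for Col3a1 and Prelp, it stands alone at the right for Mmp13, and all 4 libraries coincide for Vim.

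Genes of sterol synthesis were moderately higher. Of 28 listed genes 26 reached 50 counts, 24 were higher, 8 at least 2-fold, with a median of 0.64, against 1.09 in M32 and -0.30 in M83. Cyp51, a demethylase of the late pathway, had 8094 counts in M8, 8256 in M32, 2474 in M83 and 2953 in control (1.29). Msmo1 had 3956 counts in M8, 3513 in M32, 1189 in M83 and 1509 in control (1.23). Hmgcs1, an early enzyme of the pathway, had 3666 counts in M8, 4874 in M32, 1146 in M83 and 1485 in control (1.14). For all 3, M8 and M32 lay above M83 and control. Srebf2, which encodes a transcription factor of the pathway, was at 0.56. Fatty acid synthesis genes lay closer to control (median 0.19 over 14 genes), with Fasn at 0.35 and Scd1 at 0.11. Fatty acid oxidation and thioesterase genes had a median of -0.17 over 28 genes, with Acadm, the medium-chain dehydrogenase, at -1.12 and Decr1 at -0.98.

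Retinoid, carboxylesterase and chloride channel genes were higher, though mostly through a low control library. All 11 of 20 listed genes with 50 counts were higher, 8 at least 2-fold and 4 at least 4-fold, against 3.77% and 0.869% of all genes. The median was 1.58, and in 6 of the 11 control lay at least 2-fold below every mutant line. The list joins separate gene families and was chosen with earlier results of these data known, so its counts are not separate evidence. Aldh1a1, Aldh1a7, Clic5, Crabp2, Ces1f and Rarb had under 50 counts in control. They passed the limit only through M8 and could only count as higher. All 20 genes summed to 940 CPM in M8, 933 CPM in M32, 915 CPM in M83 and 711 CPM in control. Aldh1a7, a close relative of the retinaldehyde dehydrogenase gene Aldh1a1, had 281 counts in M8, 340 in M32, 104 in M83 and 10 in control (4.65). The relative Aldh1a1 was at 4.59. Crabp2, a retinoic acid carrier gene, had 175 counts in M8, 250 in M32, 254 in M83 and 36 in control (2.12). Rarb, a retinoic acid receptor gene, was at 1.42, but 38.4% of its exon length overlaps genes on the other strand. Among the guidance genes, Tenm4 was at 2.58, with 475 counts in M8, 586 in M32, 872 in M83 and 71 in control, and Sema3b at 1.95.

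Some genes were high in M8 alone. Tslrn1, a long noncoding RNA, had 126 counts in M8, 2 in M32, 2 in M83 and 0 in control. Lipo3, a lipase gene, had 100 counts in M8 and 0 in every other library, and its family members Lipo1 and Lipo2 had none in any. The word share of Lipo3 with other genes, mostly Lipo2, was 38.8%. Cfap45, a ciliary protein gene, had 54 counts in M8, 6 in M32, 17 in M83 and 0 in control. Cd53, a tetraspanin gene known from leukocytes, had 74 counts in M8, 10 in M32, 9 in M83 and 2 in control (interval 3.14 to 8.12), while the pan-leukocyte marker Ptprc had 1 count in M8. Bcl2l15, of the BCL2 family, had 65 counts in M8, 8 in M32, 5 in M83 and 4 in control (3.86). Akr1c18, a steroid dehydrogenase gene, was high in M8 and M83, with 176 counts in M8, 8 in M32, 153 in M83 and 10 in control (3.98). Eif4ebp3 and Pagr1a were also named by size, but 66.4% and 93.2% of their words occur elsewhere.

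Of the 61 genes at least 4-fold lower, control lay at least 2-fold above every mutant line in 6, Slc1a2 and Ppef1 among them. Slc1a2, a glutamate transporter gene (-7.81), had 10 counts in M8, 5 in M32, 12 in M83 and 2002 in control. Ppef1, a protein phosphatase gene, had 6 counts in M8, 12 in M32, 6 in M83 and 259 in control (-5.59). In both genes all 3 mutant lines stood near 0. Pde5a, the cyclic GMP phosphodiesterase gene, was lowest in M8, with 9 counts against 32 in M32, 99 in M83 and 153 in control (-4.25). Gls2, a glutaminase gene, had 63 counts in M8, 91 in M32, 110 in M83 and 163 in control (-1.53). Rn7s1 and Npcd, at 0 in M8, share 100% and 96.3% of their words with other genes and are uncertain.

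Signalling and stress lists had medians between -0.11 and 0.32. The ERK output list had 13 genes higher and 13 lower (median -0.01), yet Egr1, an immediate early gene, had 8137 counts in M8, 3253 in M32, 12461 in M83 and 18871 in control (-1.38), and Egr2 was at -1.05. Dusp6, Spry4 and Fosl1 were at 0.14, 0.05 and -0.15. In the TGF-beta and BMP list 20 of 24 genes were higher, with a median of 0.32 in M8, beside 0.30 in M32 and 0.37 in M83. It was led by Grem1, a BMP antagonist gene, with 7243 counts in M8, 2709 in M32, 3970 in M83 and 1664 in control (1.96). M8 was the highest library for Grem1. The YAP/TEAD list had a median of 0.07, with Anxa8 at 1.40, Clu at 1.21 and Cyr61 at -0.83. Heat shock genes had a median of 0.10, with the small heat shock gene Cryab at 2.21 and Hsp90aa1 at -0.51. The lists for the unfolded protein response (0.17), NRF2 (-0.06), hypoxia and glycolysis (-0.11) and Wnt (-0.07) had small medians. In the hypoxia list Pfkp, a glycolytic kinase gene, was at -1.27, with 335 counts in M8, 433 in M32, 509 in M83 and 723 in control, and Car12, a carbonic anhydrase gene, was at 1.06.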

How the data were processed

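Poly(A) RNA was isolated with the RNeasy Micro kit and made into libraries with the NEBNext Poly(A) module and Ultra II kit, per the labels' protocols. The authors deposited raw counts per gene for 41457 genes, with no normalisation and 1 column per sample, although the design text speaks of triplicates. Per the submitters' processing notes the genome build was GRCm38. The name of the cell line, the aligner, the counter, the annotation and the strand setting were not given in the sources used here. Positions came from GENCODE vM21, which uses that build and holds 41434 of the identifiers.

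Counts were divided by the library total. Ratios carry exact 95% (Clopper-Pearson) intervals, which cover counting error only since the reads have no molecular identifiers, and a count of 0 was taken as 3. No test was run, because edgeR's quasi-likelihood test needs replicates. In place of it a rule of size was used, with a limit of 50 counts in the higher library. Alternatives used TMM factors (edgeR 4.0.16), size factors (DESeq2 1.42.0), totals without mitochondrial genes, limits of 20 and 200 counts, 2 added counts, and intervals wholly past the fold. The ratio and interval code was tested on simulated data. Tools were R 4.3.3, Python 3.11.15, scipy 1.17.1 and pandas 2.3.3.

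Named by rule were the 15 genes per direction with the largest fold by the interval bound nearest 1 (placeholder symbols such as Gm and Rik passed over), the members of each of 42 lists past 2-fold (all if up to 8, else 6 per direction), all mitochondrial genes, 8 genes per direction of chromosome 12, the 2 neighbours of E2f6 on each side and 9 genes whatever their value. Not every gene so named is reported here. Other genes were named after their values were seen, as examples of their list or as neighbours and relatives. The members and lists were chosen with earlier results of these data known. Word shares are the percentage of 31-base words of a gene's transcripts that occur in other genes.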

Additional observations from a re-analysis of the deposited data

Results flagged for a closer look

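Among the 10818 genes described, 5 lay at least 2-fold below control in M8 while M32 and M83 both lay at least 2-fold above it. Tlr3, the endosomal RNA sensor gene, had a log2 ratio of -1.16 in M8, beside 1.03 in M32 and 2.02 in M83. Psmb8, the immunoproteasome subunit gene, had -1.84 in M8, beside 1.20 in M32 and 1.11 in M83. Cmpk2, the nucleotide kinase gene on chromosome 12, had -3.47 in M8, beside 1.23 in M32 and 1.13 in M83. Usp18, the protease gene of the ISG15 pathway, had -3.16 in M8, beside 1.02 in M32 and 1.86 in M83. Parp14, an interferon-induced gene of the PARP family, had -2.52 in M8, beside 1.47 in M32 and 1.40 in M83. The opposite pattern was seen in 1 gene, 1810049J17Rik, with 2.25 in M8, beside -1.08 in M32 and -1.05 in M83. The control library is the common denominator and held between 76 and 88 counts of the first 5 genes. M8 held between 8 and 38 counts of each, below the count limit of 50. These genes passed the limit only through control and could only count as lower in M8. The gene with the opposite pattern, 1810049J17Rik, had 44 counts in control. It passed the limit only through M8 and could only count as higher. The differences between the lines were not tested, since each has 1 library.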

How the results depend on the processing

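The counts of genes past a fold moved with the count limit by construction, since fewer or more genes were then eligible. With a limit of 20 counts 666 genes were at least 2-fold higher, 388 at least 2-fold lower, 198 at least 4-fold higher and 109 at least 4-fold lower. With a limit of 200 these counts were 191, 95, 34 and 22, and with the interval wholly past the fold 224, 122, 45 and 38. TMM factors, DESeq2 size factors, totals without mitochondrial genes and 2 added counts left each of the 4 counts within 1.5 times of its value above. TMM factors put the median of the fatty acid oxidation list at -0.20. The median of all genes was -0.019 with TMM factors and -0.0050 with totals without mitochondrial genes. Of 36 medians 3 changed sign under some alternative, those of all genes, of the ERK output list (0.03 with a limit of 200) and of the checkpoint ligand list (-0.0053 with a limit of 20). The effector median ran to -1.14 with a limit of 200 counts, and the chromosome 12 median was -0.59 with TMM factors. Of 131 named genes none changed direction in the alternatives run. This was largely fixed in advance, since each scaling alternative shifts all genes equally and a count limit leaves a gene's ratio unchanged. Leaving out chromosome 12 or the interferon genes was chosen after seeing the data. No paired analysis was possible because each group has 1 library, and for the same reason no replicate could be left out. A count of 0 limits what can be said of weak genes.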

Other observations

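Genes of the BBSome and of intraflagellar transport, the machinery that carries cargo along primary cilia, lay mostly below control in M8. The list was drawn up after single members had been seen to be low. Of 22 genes with 50 or more counts 18 were lower, against 48.6% of all genes, and 4 were at least 2-fold lower, against 2.10%. None was 2-fold higher, and the median log2 ratio was -0.48. Of the 4, Ttc26 and Bbs4 had under 50 counts in M8 and passed the limit only through control. They could only count as lower. Ttc8, also 1 of the 4, lies on chromosome 12. M8 was the lowest of the 4 libraries in 17, as it was in 28.3% of all genes, and 2 of the 22 lie on chromosome 12. Ttc26, an intraflagellar transport gene, had 49 counts in M8, 165 in M32, 185 in M83 and 117 in control (-1.42). Bbs4, a BBSome subunit gene, had 44 counts in M8, 85 in M32, 97 in M83 and 97 in control (-1.30). Ift88 had 93 counts in M8, 239 in M32, 262 in M83 and 193 in control (-1.21). The exceptions included Ift20 at 0.53 and Ift57 at 0.24.

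The linker histone gene Hist1h1c had 940 counts in M8, 421 in M32, 307 in M83 and 139 in control (log2 ratio 2.60, interval 2.34 to 2.86). Each of the other listed H1 genes, Hist1h1a, Hist1h1b, Hist1h1d and Hist1h1e, had at most 34 counts in any library.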
